A study of Mus musculus with 6 samples.

Results

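The genes described here are the heat shock proteins, their J-domain partners, the cytosolic chaperonin and the BAG co-chaperones of mouse haematopoietic stem cells (HSCs), the rare bone marrow cells that maintain blood formation. Members were chosen by gene symbol alone, as names beginning with Hspa, Hspb, Hspd1, Hspe1, Hsph1, Hsp90, Dnaja, Dnajb, Dnajc, Cct plus a digit or Bag plus a digit, and 82 of 17068 listed genes met the rule. The mice carried Gfp-Lc3, which makes the autophagosome protein LC3 visible by fluorescence, and the study asked how HSC transcription changes when autophagy is engaged for a short time. There were 6 groups with 1 library from 1 mouse each: old fasted for 24 hours, old fasted for 24 hours then refed for 24 hours, old fed ad lib, and young mice under the same 3 feeding conditions. The data are the authors' deposited tables for cell clusters 0 to 10, 11 in number, each set against all other cells pooled over the 6 libraries. Values by age, feeding or library, and the cell barcodes that libraries share, were not analysed here, so no difference below is one between old and young or between fasted and fed mice.

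Chaperones keep proteins folded and out of aggregates. HSP70 proteins bind exposed greasy stretches of a client, J-domain proteins (DNAJ) deliver clients and trigger the ATP hydrolysis that closes HSP70 on them, and HSP110 and BAG proteins exchange the nucleotide so that the client is released. HSP90 finishes the folding of kinases and hormone receptors, the ring-shaped CCT complex folds actin and tubulin, small HSPs hold unfolded proteins without using ATP, and the endoplasmic reticulum (ER) and mitochondria each have their own set. Cells raise different members under different stresses, with heat shock factor HSF1 acting on cytosolic members and ATF6 and XBP1 on ER members, and HSPA8 and BAG3 also take clients to lysosomes through chaperone-mediated and chaperone-assisted autophagy.

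Clusters 0 to 4 held 90.8% of 22378 cells, with 4904, 3955, 3910, 3802 and 3747 cells, cluster 5 held 1188, and clusters 6 to 10 held 310, 267, 173, 112 and 10, read from the deposited p-values. The estimated counts per cell ran from 9579 in cluster 7 to 15555 in cluster 4 among clusters 0 to 9 and reached 49249 in cluster 10. Long-term HSC markers were present in every cluster, at summed levels of 11.8 to 20.0 counts per 10000. Cluster 6 also held erythroid markers at 13.7 per 10000, against 2.81 in all other cells, and T cell markers at 0.206, against 0.0184. In cluster 7 the 8 mitochondrially encoded genes that were summed stood at 904 per 10000, against 407 in all other cells. A fold below is the authors' deposited log2 ratio of a cluster to all other cells, and a member is called higher or lower when that log2 fold reaches 0.5 in either direction with a deposited adjusted p under 0.05. Expression itself set the clusters, so each fold is given as a description and not as a test, and no value carries a between-animal error.

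The chaperone genes as a whole hardly separated the large clusters. Their summed level was 100.5 to 101.2 counts per 10000 in clusters 0 to 4, against at most 100.2 in all other cells. It was lowest in clusters 6 and 7, at 86.7 and 84.3, and highest in the 10 cells of cluster 10, at 119.6. The median log2 fold of the members in the authors' deposited tables lay between -0.02 and 0.03 in clusters 0 to 5, beside -0.06 to 0.02 for all detected genes. In 59 of 82 members every log2 fold of clusters 0 to 4 in the authors' deposited tables was within 0.25 of 0. The median member spanned 0.27 log2 units over those clusters in the authors' deposited tables.

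**Figure D1:**
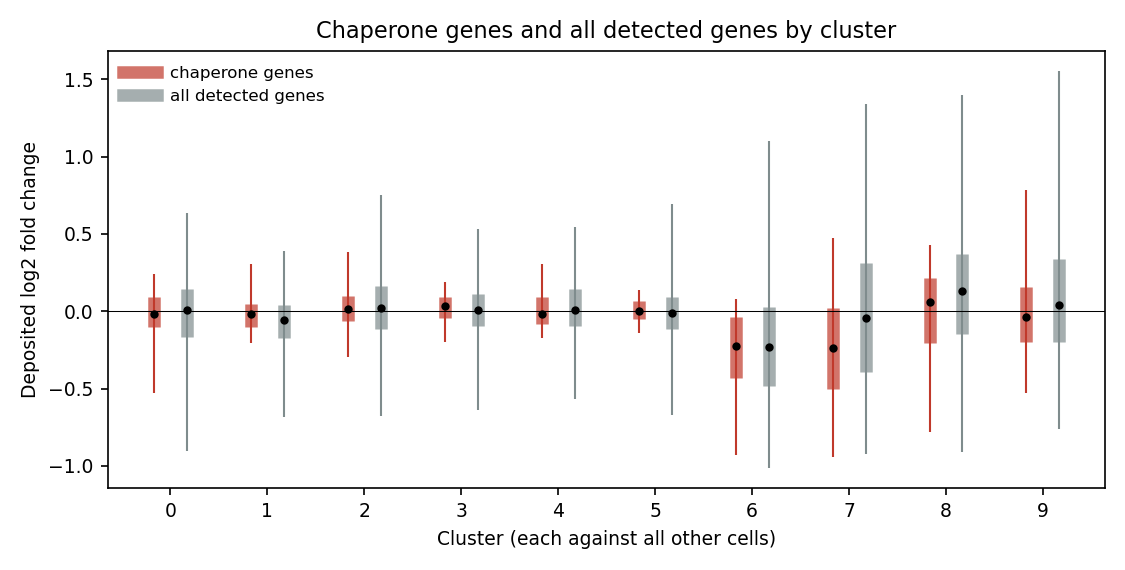
Deposited log2 fold change of each cluster against all other cells (y axis) for clusters 0 to 9 (x axis), chaperone genes in red and all detected genes in grey; dots are medians, thick bars the middle 50% of genes and thin lines the 5th to 95th percentiles. In the authors' deposited tables the chaperone genes have a narrower spread than all genes in clusters 0 to 5, and their median is -0.24 in cluster 7, where that of all detected genes is -0.04.

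Calls in the large clusters came from few genes. In cluster 0 the call took in 1 member higher and 5 lower of 82, where 2.42% of all detected genes were called higher and 6.20% lower in the authors' deposited table. Cluster 1 had 1 higher and none lower (background 0.125% and 1.59%), cluster 2 had 4 higher and 1 lower (3.06% and 2.70%), and cluster 3 had none higher and 1 lower (0.713% and 1.39%) in the authors' deposited tables. No member was called in cluster 4 (0.391% and 0.836%) or cluster 5 (0.143% and 0.941%) in the authors' deposited tables. The shares called lower were under the background in each of clusters 0 to 5, and the share called higher in cluster 2 was 4.88% of the members, beside 3.06% of all detected genes. The background was not matched to the members by level, and 60 of the 82 members lay at or above the median level of all genes. The 13 calls of clusters 0 to 4 fell on 7 genes, and all 7 lay below the median mean level of all genes.

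Several main cytosolic chaperones had small folds in clusters 0 to 5. Hspa8, the housekeeping HSP70 that also picks the cargo of chaperone-mediated autophagy, stood at 13.1, 13.7, 13.2, 12.4, 12.9, 12.6, 13.0, 10.7, 11.2 and 13.1 counts per 10000 in clusters 0 to 9. Its lowest values were in clusters 7 and 8, with log2 folds of -0.29 and -0.21 in the authors' deposited tables, and it was called in neither. Hsp90ab1, the constitutive cytosolic HSP90, stood at 26.0, 26.5 and 26.3 per 10000 in clusters 0, 1 and 4 and at 20.2 and 20.1 in clusters 6 and 7. Hsp90aa1, the inducible HSP90 of the same compartment, had log2 folds of -0.27 to 0.08 over clusters 0 to 9 in the authors' deposited tables. Dnaja1, a major cytosolic partner of HSP70, lay within -0.13 to 0.08 in clusters 0 to 6 and was -0.44 and -0.19 in clusters 7 and 8 in the authors' deposited tables. Bag3, the co-chaperone of chaperone-assisted autophagy, stayed between -0.15 and 0.12 in clusters 0 to 9 of the authors' deposited tables. Dnajb1, the classical HSP40 and a target of HSF1, was at 0.484 to 0.610 per 10000 in clusters 0 to 8. Of clusters 0 to 9 only cluster 9, described below, lay outside that band, at 1.98.

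The CCT subunits, which sit together in 1 ring, moved by small amounts. In clusters 0 and 3 the median log2 folds of the 8 CCT genes were 0.10 and 0.09 in the authors' deposited tables, with 7 of 8 above 0 in each. In clusters 2 and 4 the medians were -0.05 and -0.09, with 1 of 8 above 0 in each, in the authors' deposited tables. None of the 8 was called in clusters 0 to 6. Cct2 stood at 2.63, 2.31, 2.32, 2.43, 2.25, 2.23, 2.11, 1.71, 3.04 and 2.44 counts per 10000 in clusters 0 to 9, so the low value was that of cluster 7 and the high one that of cluster 8. All 8 were above 0 in cluster 8, with a median of 0.24 beside 0.13 for all detected genes in the authors' deposited table, and none was called. Cct6b, a form of the sixth subunit known from testis, was measured at a mean of 0.00712 per 10000, so its folds rest on few counts.

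**Figure D2:**
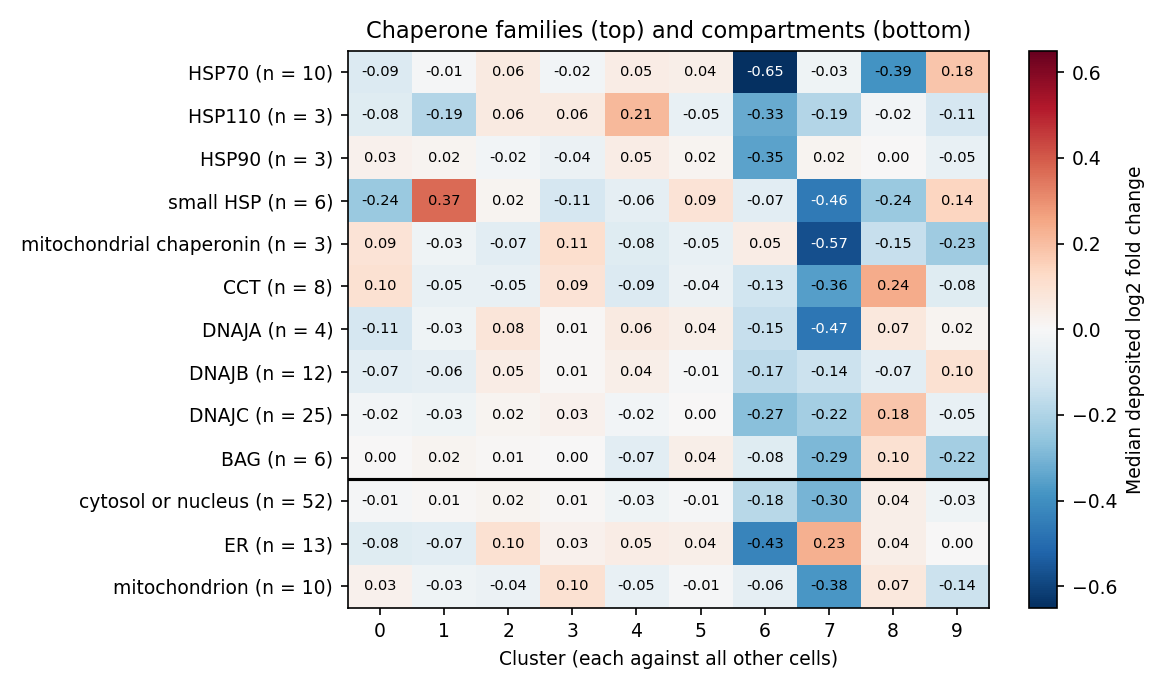
Median deposited log2 fold change of each chaperone family (above the line) and each compartment (below it) in clusters 0 to 9 against all other cells, with the number of member genes beside each name. In the authors' deposited tables ER members are at -0.43 in cluster 6 and 0.23 in cluster 7, and CCT members at -0.36 in cluster 7 and 0.24 in cluster 8.

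Small HSPs and the inducible HSP70 pair carried most of the calls in clusters 0 to 2. Hspb1, the actin-protecting small HSP known as HSP27, stood at 0.0335, 0.104, 0.101, 0.0608, 0.0828, 0.0770, 0.0389, 0.0590, 0.0257 and 0.0888 counts per 10000 in clusters 0 to 9. Clusters 0, 6 and 8 were low and clusters 1 and 2 high, and the log2 folds in the authors' deposited tables were -1.33, 0.63, 0.58, -0.93 and -1.52 in clusters 0, 1, 2, 6 and 8, all called. An estimated 214 counts lay behind the value of cluster 0 and 487 behind that of cluster 2, but 12 behind cluster 6 and 5 behind cluster 8. With 5 counts, a 95% Poisson interval, which covers counting error only, put the log2 fold of cluster 8 in the authors' deposited table between -3.14 and -0.30.

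Hspb6, the small HSP known as HSP20, was at 0.0243 counts per 10000 in cluster 0, against 0.0474 in all other cells, and at 0.0605 in cluster 2, against 0.0385. The log2 folds of Hspb6 in the authors' deposited tables were -0.96 in cluster 0 and 0.65 in cluster 2, both called. Hspa1a and Hspa1b encode the stress-inducible HSP70. The log2 folds of Hspa1a and Hspa1b in the authors' deposited tables were -0.55 and -0.61 in cluster 0, both called, and 0.30 and 0.58 in cluster 2, the second of them called. The pair are near-identical copies on chromosome 17, so how their reads were divided is uncertain, and their levels were 0.0169 and 0.0303 per 10000 in cluster 0, against 0.0248 and 0.0463 in all other cells. Hspb9 was also lower in cluster 0 (-0.54, from an estimated 40 counts), and Dnajb3, a J protein best known from testis, was higher in cluster 2 (0.67) in the authors' deposited tables. Over the 6 genes named as small HSPs the median was -0.24 in cluster 0, with 3 called lower, beside 6.20% of all detected genes, in the authors' deposited table. In cluster 1 the median was 0.37, with 6 of 6 above 0 and 1 called higher, in the authors' deposited table. Hspb11, counted among the 6, entered by name only and was at 0.09 in cluster 1 of the authors' deposited table. Hspb2 and Hspb9 rested on an estimated 12 and 46 counts in cluster 1. The longest exonic lengths of the 6 ran from 726 bases (Hspb9) to 1980 bases (Hspb6). Over all genes at or above the median level, folds of cluster 1 fell with that length (Spearman rho -0.45). The part of length in the small HSP values was not tested. Hsph1, the HSP110 that exchanges nucleotide on HSP70, had -0.25 and 0.20 in clusters 0 and 2 in the authors' deposited tables, and Dnajb2, a J protein that binds ubiquitin chains, had -0.42 and 0.38. Neither passed the size limit there. Clusters 0 and 2 also differed in cell type markers. The summed level of 5 megakaryocyte markers was 1.94 per 10000 in cluster 0, against 1.03 in all other cells, and 0.847 in cluster 2, against 1.31. Long-term HSC markers went the other way. Their summed level in cluster 0 was below the 16.9 per 10000 of all other cells, and in cluster 2 it was 19.1, against 15.1. Procr, Mecom, Fgd5, Mllt3 and Ly6a were called lower in cluster 0 of the authors' deposited table. The part of these marker differences in the chaperone values was not tested.

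Promoter sequences are shown for Hspe1, which was not called in clusters 0 to 5, and Hspb1, which was called in 3 of them. HSF1 binds arrays of GAA units in alternate orientation. The letters GAANNTTCNNGAA, read on both strands, stood in the RefSeq promoter windows (250 bases before to 50 after the start, build GRCm38.p6) of 4 of the 67 members that had one, Dnajb6, Hspd1, Hspe1 and Hsph1, and in 0.662% of 27025 gene symbols. The shorter GAANNTTC, which the longer motif contains, stood in 14 of 67 members and in 9.04% of symbols. The window of Hspe1, the mitochondrial HSP10, holds the 3-unit motif in both orientations in 1 overlapping run, and that of Hspb1 holds the 2-unit motif at 2 places. The 250 bases before each start are given 5′ to 3′ with the motifs in capitals, Hspe1 at chr1:55087898-55088147 on the plus strand and Hspb1 at chr5:135887669-135887918 on the plus strand.
Hspe1: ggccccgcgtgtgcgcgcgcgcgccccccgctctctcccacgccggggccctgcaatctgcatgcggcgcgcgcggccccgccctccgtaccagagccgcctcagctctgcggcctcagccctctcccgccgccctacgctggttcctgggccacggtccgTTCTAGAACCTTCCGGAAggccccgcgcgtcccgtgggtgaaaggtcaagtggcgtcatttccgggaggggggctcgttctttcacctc
Hspb1: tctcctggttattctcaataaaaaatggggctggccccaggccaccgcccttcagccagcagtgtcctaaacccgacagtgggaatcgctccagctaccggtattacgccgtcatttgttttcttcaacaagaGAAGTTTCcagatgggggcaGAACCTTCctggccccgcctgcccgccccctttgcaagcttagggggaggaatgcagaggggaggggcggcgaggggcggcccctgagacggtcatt
Hspe1 and Hspd1, which encodes HSP60, start from opposite strands of the same stretch of chromosome 1. Their folds over clusters 0 to 5 in the authors' deposited tables were -0.08 to 0.18 for Hspe1 and -0.12 to 0.11 for Hspd1, and neither gene was called there. 
Dnajc6 was highest in cluster 0. It encodes auxilin, the J protein with which HSPA8 strips clathrin from coated vesicles. Its level was 0.0758, 0.0489, 0.0192, 0.0336, 0.0431, 0.0413, 0.0337, 0.0422, 0.0639 and 0.0244 counts per 10000 in clusters 0 to 9. Cluster 0 was the highest and cluster 2 the lowest, and the log2 folds in the authors' deposited tables were 1.05 in cluster 0, -1.40 in cluster 2 and -0.50 in cluster 3, all called. An estimated 485 counts in cluster 0 and 93 in cluster 2 stood behind these values.

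**Figure D3:**
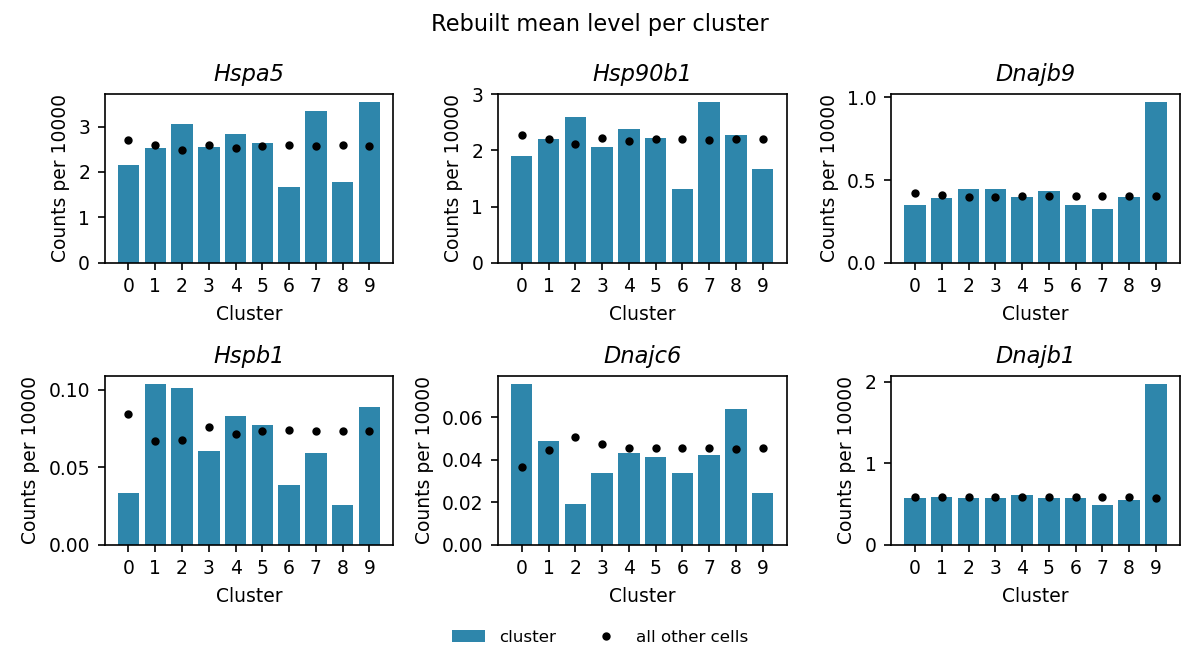
Rebuilt mean level in counts per 10000 (y axes, each from 0) of 6 chaperone genes in clusters 0 to 9 (bars) and in all other cells (dots); there is no error bar because no value per library was used. Hspa5 is low in clusters 0, 6 and 8, Hsp90b1 in clusters 0, 6 and 9, and Hspb1 in clusters 0, 6 and 8. Dnajc6 is highest in cluster 0, and Dnajb1 and Dnajb9 are highest in cluster 9, at 1.98 and 0.975.

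ER chaperones fold secreted and membrane proteins, and 13 members were assigned to that compartment. Hspa5 (BiP), the HSP70 of the ER, whose release from stress sensors starts the unfolded protein response, stood at 2.15, 2.53, 3.05, 2.55, 2.83, 2.64, 1.67, 3.35, 1.79 and 3.55 counts per 10000 in clusters 0 to 9. Hsp90b1 (GRP94), the HSP90 of the ER, stood at 1.91, 2.20, 2.59, 2.07, 2.38, 2.22, 1.31, 2.87, 2.27 and 1.67. Both were low in clusters 0 and 6 and high in clusters 2 and 7, and they parted in clusters 8 and 9. The log2 folds of Hspa5 in the authors' deposited tables were -0.33, 0.30, -0.64, 0.38, -0.53 and 0.46 in clusters 0, 2, 6, 7, 8 and 9, of which those of clusters 6 and 8 were called. Those of Hsp90b1 in the authors' deposited tables were -0.25, 0.29, -0.75, 0.39, 0.04 and -0.40 in the same clusters, and only that of cluster 6 was called. Dnajc3 (P58IPK), a J protein that serves BiP, was close to flat at -0.09 to 0.04 in clusters 0 to 5 and was -0.39, 0.23 and -0.31 in clusters 6 to 8 of the authors' deposited tables.

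Across the compartment the ER members had medians of -0.08, -0.07, 0.10, 0.03, 0.05 and 0.04 in clusters 0 to 5 of the authors' deposited tables, with none called. There were 3 of 13 above 0 in cluster 0 and 11 of 13 in cluster 2. The other ER folding genes, such as calnexin-cycle and disulfide enzymes, had medians of -0.03 and 0.06 in clusters 0 and 2 in the authors' deposited tables, none of 19 called in either. The regulators of the unfolded protein response were listed beside them. In cluster 0 none of 12 was above 0, and Atf3 (-1.37), Trib3 (-1.02) and Xbp1 (-0.65) were called lower in the authors' deposited table. That is 3 of 12, where 6.20% of all detected genes were called lower in cluster 0. Atf3 had a mean of 0.00303 counts per 10000 over all cells, so its fold there rests on few counts. In cluster 2, 11 of 12 were above 0, and Trib3 (0.70) and Xbp1 (0.69) were called higher in the authors' deposited table. The share of all detected genes called higher in cluster 2 was 3.06%. Immediate early genes, which respond to almost any stimulus and include Atf3, leaned the same way. Their medians were -0.32 in cluster 0, with 15 of 18 below 0, and 0.15 in cluster 2, with 12 of 18 above 0. The part of this response in the regulator and ER values was not tested. XBP1 is a transcription factor that switches on ER folding genes, and TRIB3 and ATF3 act downstream of ATF4.

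The ER stress response element, to which ATF6 and XBP1 bind together with NF-Y, was searched as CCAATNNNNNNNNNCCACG on both strands. It stood in 3 of 67 member windows, those of Hspa5, Hsp90b1 and Dnajc3, and in 37 of 27025 gene symbols (0.137%). The 250 bases before each start are shown 5′ to 3′ with the element in capitals, since these are the members whose windows hold it: Hspa5 at chr2:34771840-34772089 (plus strand), Hsp90b1 at chr10:86705445-86705694 (minus strand) and Dnajc3 at chr14:118937682-118937931 (plus strand), from RefSeq on build GRCm38.p6.
Hspa5: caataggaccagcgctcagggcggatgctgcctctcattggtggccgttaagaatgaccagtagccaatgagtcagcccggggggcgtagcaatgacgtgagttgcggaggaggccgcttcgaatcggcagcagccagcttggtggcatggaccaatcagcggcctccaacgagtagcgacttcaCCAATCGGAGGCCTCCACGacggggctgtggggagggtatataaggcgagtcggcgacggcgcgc
Hsp90b1: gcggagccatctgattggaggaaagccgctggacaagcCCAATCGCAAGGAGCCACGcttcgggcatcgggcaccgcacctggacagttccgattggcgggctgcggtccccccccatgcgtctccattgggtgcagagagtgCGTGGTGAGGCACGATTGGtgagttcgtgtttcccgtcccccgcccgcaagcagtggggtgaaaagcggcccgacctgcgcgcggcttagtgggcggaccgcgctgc
Dnajc3: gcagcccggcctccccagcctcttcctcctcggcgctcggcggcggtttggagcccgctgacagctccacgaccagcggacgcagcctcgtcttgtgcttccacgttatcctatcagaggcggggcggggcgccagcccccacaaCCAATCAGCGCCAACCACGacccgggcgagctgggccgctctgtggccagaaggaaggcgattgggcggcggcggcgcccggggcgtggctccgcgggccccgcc
Hsp90b1 has the element at 2 places, the second in reverse orientation, and the nearest one ends 88 bases before the start. The element ends 46 bases before the start of Hspa5 and 86 before that of Dnajc3. A match of letters does not show that a factor was bound, and no match says only that these letters are not in a window.

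Cluster 9 had high values of the J-protein genes Dnajb1 and Dnajb9. Its 112 cells had 3 members called higher and none lower of 78 detected, where 1.50% of all detected genes were called higher and 2.09% lower in the authors' deposited table. Dnajb1 stood at 1.98 counts per 10000 in cluster 9, against 0.579 in all other cells, an estimated 310 counts. Dnajb9 (ERdj4), a J protein that restrains the stress sensor IRE1 and aids ER-associated degradation, stood at 0.975, against 0.403, an estimated 153 counts. Hspa2, an HSP70 best known from sperm development, stood at 0.224, against 0.115, an estimated 35 counts. Their log2 folds in the authors' deposited table were 1.77, 1.28 and 0.97. None of the 25 DNAJC or 4 DNAJA genes was called there. In clusters 0 to 8 Dnajb9 was between 0.327 and 0.447 per 10000, so no other cluster of that range came near the value of cluster 9.

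Other heat shock and ER members were not called in cluster 9. The log2 folds in the authors' deposited table were 0.41 for Hspa1a and 0.75 for Hspa1b, from an estimated 5 and 11 counts, and neither was called. Hsph1 was at -0.57, Hspe1 at -0.32, Hsp90b1 at -0.40, Hspa8 at 0.02 and Bag3 at 0.08 in the authors' deposited table, none called. ER members as a whole had a median of 0.00 and 6 of 13 above 0 there. Among the 12 regulators of the unfolded protein response, Atf3 (5.89), Ppp1r15a (2.55), Atf4 (1.29) and Ppp1r15b (0.83) were called higher in cluster 9 of the authors' deposited table. ATF4 drives the amino acid and oxidative arm of that response, and the 2 PPP1R15 proteins lead the phosphatase that restores translation. Immediate early genes, which respond to almost any stimulus within minutes and include Atf3, were called higher in 17 of 18 cases in cluster 9 of the authors' deposited table, with a median of 2.66 beside 0.04 for all detected genes. Their part in the chaperone values was not tested.

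**Figure D4:**
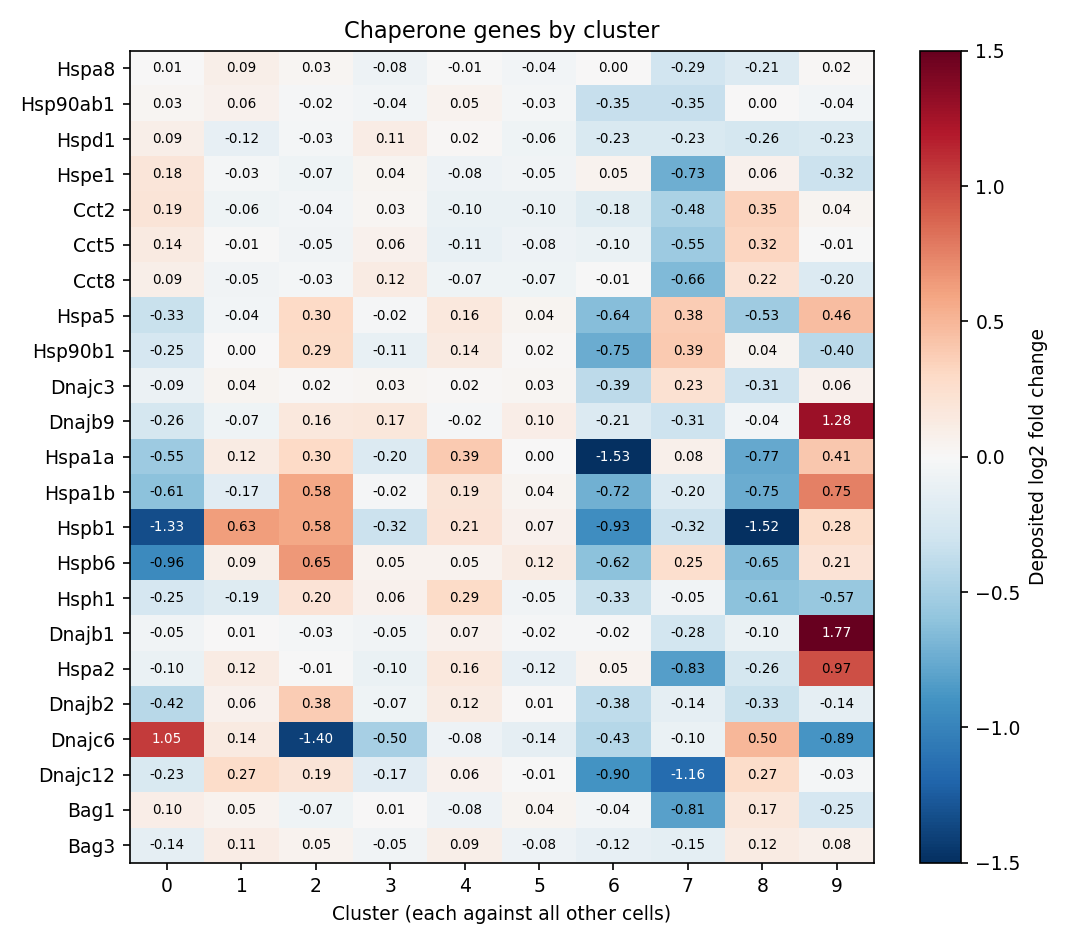
Deposited log2 fold change of 23 chaperone genes (rows) in clusters 0 to 9 (columns) against all other cells, with the value in each cell and red for higher in the cluster. In the authors' deposited tables the first rows, housekeeping cytosolic, mitochondrial and CCT genes, are within 0.35 of 0 outside cluster 7, and the strongest values are those of Dnajb1 in cluster 9 (1.77), Hspa1a in cluster 6 (-1.53) and Hspb1 in cluster 8 (-1.52).

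Cluster 7 had the most chaperone calls of any cluster. Of 80 detected members 16 (20.0%) were called lower and 1 higher, where 11.3% of all detected genes were called lower and 2.19% higher in the authors' deposited table. The median member was at -0.24, beside -0.04 for all detected genes, in the authors' deposited table. Cytosolic members made up 13 of the lower calls and mitochondrial ones the other 3, and no ER member was called lower. Cct8 (-0.66), Cct5 (-0.55) and Cct4 (-0.53) of the chaperonin were called lower in the authors' deposited table. Cct8 stood at 1.27 counts per 10000 in cluster 7, against 2.02 in all other cells. A list of 10 genes, made up of Tcp1 (the first CCT subunit, which the symbol rule leaves out), 6 prefoldin subunits, which hand actin and tubulin to CCT, and the CCT partners Pdcl, Pdcl3 and Txndc9, had a median of -0.57 and 7 called lower in the authors' deposited table, Pfdn5 (-0.93) and Pfdn1 (-0.91) among them.

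Some HSP70 co-factors were called lower in cluster 7, among them 2 of 6 BAG genes and none of 3 HSP110 genes. Bag1 (-0.81), Bag5 (-0.62) and Hspbp1 (-0.54), which exchange nucleotide on HSP70, were called lower in the authors' deposited table. Bag1 stood at 0.734 counts per 10000 in cluster 7, against 1.28 in all other cells, and all 6 BAG genes were below 0. Among J proteins, Dnajc24 (-0.94), needed to make diphthamide on elongation factor 2, Dnajc8 (-0.56), a spliceosome component, Dnajc21 (-0.50), a ribosome assembly factor, and Dnajb6 (-0.51), a suppressor of aggregation, were called lower in the authors' deposited table. So were Dnajc12 (-1.16), the partner of aromatic amino acid hydroxylases, and the HSP70 genes Hspa2 (-0.83) and Hspa12a (-1.81) in the authors' deposited table. Dnajc12 and Hspa2 rested on an estimated 16 and 17 counts in cluster 7. Hspa12a rested on an estimated 1 count, and the 95% Poisson interval around its log2 fold in the authors' deposited table ran from -7.11 to 0.67.

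Mitochondrial members split in cluster 7. Hspe1 stood at 1.93 counts per 10000 in cluster 7, against 3.20 in all other cells. Hspe1 (-0.73), Dnajc4 (-1.01) and Dnajc19 (-0.54), part of the protein import motor, were called lower, and Dnajc11 (0.62), a protein of the mitochondrial outer membrane, was called higher in the authors' deposited table. Hspd1, which pairs with Hspe1 in the chaperonin, was at -0.23, and the mitochondrial HSP70 Hspa9 at 0.26, neither called, in the authors' deposited table. The nucleotide exchange factor of Hspa9, Grpel1, was called lower at -0.86 in the authors' deposited table. ER members went the other way, with 10 of 13 above 0 and a median of 0.23 in the authors' deposited table. None passed the call, but Hyou1 (0.74), the ER HSP110 that the symbol rule leaves out, Sel1l (0.73) and Atf6 (0.73) were called higher and Sec61b (-0.98) lower in the authors' deposited table.

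Signs of RNA quality moved with cluster 7. All 10 genes of that list, 8 of them mitochondrially encoded and the others the nuclear RNAs Malat1 and Neat1, were called higher, with a median of 1.14 in the authors' deposited table. Transcript length moved with it too. Over 60 members at or above the median level, the Spearman rho between the deposited fold of cluster 7 and the longest exonic length was 0.57, beside 0.54 over 8475 genes at that level. Members called lower there included short genes such as Hspe1 (964 bases) and Dnajc4 (1074 bases). The longest of those called lower were Hspa12a (5734 bases) and Dnajc12 (3025 bases), which rested on an estimated 1 and 16 counts. Hspa12a lay below the median level and is not among the 60. The 1 member called higher, Dnajc11, has 5607 bases, and Hspa5 and Hsp90b1, not called, have 3672 and 3222 bases. The same rho was 0.47 for the members in cluster 4, beside 0.54 for all genes, and -0.43 in cluster 6, beside -0.48. For the members it was -0.29, -0.26 and 0.17 in clusters 0, 1 and 2, beside -0.21, -0.45 and 0.20 for all genes. These are descriptions across genes of the same libraries, which are no independent replicates, and the part of length or RNA quality in the chaperone values was not tested.

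**Figure D5:**
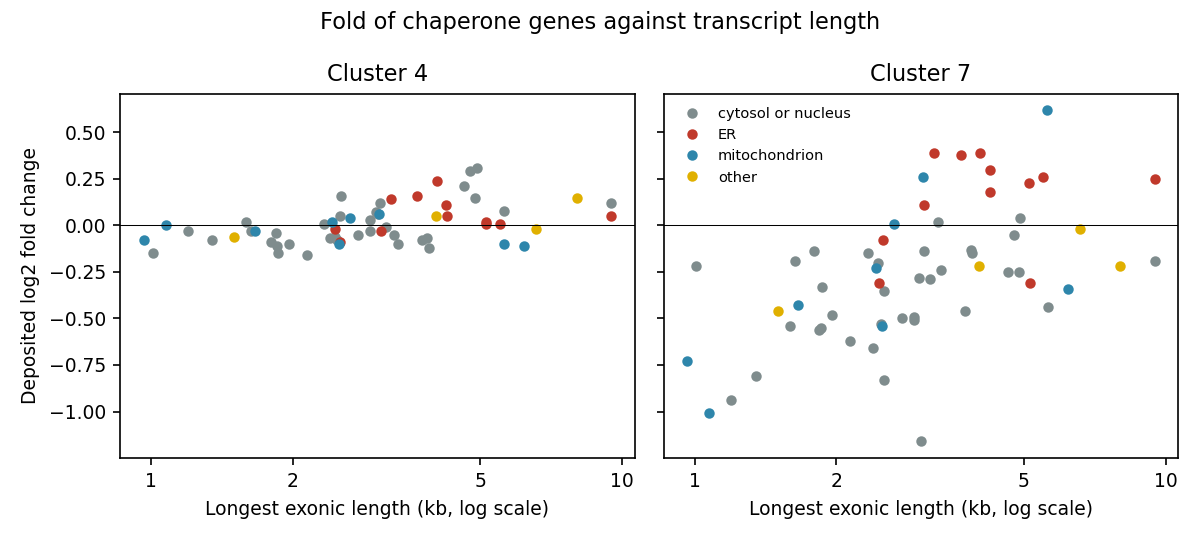
Deposited log2 fold change (y axis) of the 60 chaperone genes at or above the median mean level against their longest exonic length in kilobases (x axis, log scale) in clusters 4 and 7, coloured by compartment. In cluster 7 most short genes lie below 0 and most ER genes above it, and the Spearman rho over the 60 genes is 0.57 in cluster 7 and 0.47 in cluster 4.

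In cluster 6 most detected genes had folds below 0, and the ER members had a lower median than all detected genes. Of 79 detected members 13 (16.5%) were called lower and none higher, close to the background of 14.4% lower and 0.0552% higher in the authors' deposited table, and the median was -0.23 for the members and for all detected genes. With folds taken relative to that median, 6 members were called lower. ER members stood lower than that, with 0 of 13 above 0, a median of -0.43 and 4 called lower in the authors' deposited table: Hsp90b1 (-0.75), Hspa13 (-0.66), Hspa5 (-0.64) and Dnajb14 (-0.60). Relative to the median of all detected genes the ER median was -0.20, and of these 4 Hsp90b1 alone reached the size limit. Hsp90b1 was at 1.31 counts per 10000 in cluster 6, against 2.21 in all other cells, and Hspa5 at 1.67, against 2.60. The 19 companion ER folding genes had a median of -0.31 in cluster 6 of the authors' deposited table, and 3 were above 0. Only 2 of the 19 (10.5%) were called lower, a share under the background of 14.4%. These 2 were Syvn1 (-0.68), the ubiquitin ligase of ER-associated degradation, and Pdia4 (-0.67), a disulfide isomerase. Unfolded protein response regulators had 3 of 11 detected genes (27.3%) called lower: Atf6 (-0.61), Xbp1 (-0.56) and Ppp1r15a (-0.53).

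The 10 HSP70 genes had a median of -0.65 in cluster 6 of the authors' deposited table, with 4 called lower. Among the HSP70 genes at or above the median level of all genes the median was -0.16, beside -0.23 for all detected genes, so the low value rests on the low-level members. The called genes were Hspa1a (-1.53), Hspa12b (-0.78), Hspa13 and Hspa5, while Hspa8 was at 0.00 in the authors' deposited table. Hspa1a rested on an estimated 2 counts, and the 95% Poisson interval around its log2 fold in the authors' deposited table ran from -4.58 to 0.32. The other lower calls were Dnajc28 (-1.01), Hspb1 (-0.93), Dnajc12 (-0.90), the endosomal J protein Dnajc13 (-0.73), Dnajc21 (-0.68), the HSP110 gene Hspa4 (-0.57) and the mitochondrial J protein Dnaja3 (-0.54) in the authors' deposited table. Hspa12b, Dnajc28 and Hspb1 rested on an estimated 16, 9 and 12 counts in cluster 6. The 95% Poisson intervals ran from -1.59 to -0.08 for Hspa12b and from -2.14 to -0.09 for Dnajc28. The 8 CCT genes and the 10 genes of prefoldin and CCT partners had medians of -0.13 and 0.00 and none called in the authors' deposited table, and relative to the median of all detected genes the CCT median turned to 0.10. Mitochondrially encoded genes were at a summed 281 counts per 10000 in cluster 6, against 415 in all other cells. The part of these and of the erythroid and T cell markers in the chaperone values was not tested.

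Clusters 8 and 10 were small. Cluster 8 had 3 members called lower and none higher of 79 detected, where 4.19% of all detected genes were called lower and 2.87% higher in the authors' deposited table. They were Hspb1 (-1.52), Hsph1 (-0.61) and Hspa5 (-0.53) in the authors' deposited table. Of 19 companion ER folding genes Sdf2l1 (-0.98) and Sil1 (-0.82) were called lower there, and 11 were above 0, in the authors' deposited table. Their median was 0.06, beside 0.13 for all detected genes, in the authors' deposited table. Of 11 detected unfolded protein response regulators Trib3 (-0.88) and Xbp1 (-0.65) were called lower, with 4 above 0, in the authors' deposited table. The long nuclear RNA Malat1 was at -1.15 in the same cluster of the authors' deposited table. In the 10 cells of cluster 10, 6 of 74 detected members (8.11%) were called higher and none lower, where 2.51% of all detected genes were called higher and 0.222% lower in the authors' deposited table. They were Dnajb9 (0.95), Dnajb1 (0.94), Hspa5 (0.74), Hspa4 (0.72), Dnajc7 (0.58), which bridges HSP70 and HSP90, and Hspa9 (0.56) in the authors' deposited table. The median of all detected genes was 0.37 in that cluster of the authors' deposited table and the member median was 0.32. With folds taken relative to the median of all detected genes, 2 members were called higher in cluster 10. There were 8 members that had no count in it, which allows each up to 30.0% of cells with a count.

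Few partners outside the symbol rule were called in the large clusters. None of 23 HSP70 and HSP90 co-chaperones, 10 genes of prefoldin and partners of CCT or 15 mitochondrial folding genes was called in clusters 0 to 5 of the authors' deposited tables. Cluster 7 had 4 of the 22 detected co-chaperones called lower, including Sugt1 (-0.52), and 1 called higher, Cdc37l1 (0.51), in the authors' deposited table. Fkbp5 (-0.74), the HSP90 partner induced by glucocorticoids, was the 1 co-chaperone called in cluster 9, and it was lower in the authors' deposited table. Of the heat shock factor genes Hsf4 (-1.25) was lower and Hsf2bp (0.73), which encodes a protein that binds HSF2, was higher in cluster 0 of the authors' deposited table, and Hsf2bp (-0.79) was lower in cluster 4. Hsf4 and Hsf2bp had low means, 0.0245 and 0.0132 counts per 10000 over all cells. Hsbp1 of the same list, at a mean of 1.64, was called lower in cluster 7 (-0.74) of the authors' deposited table. The folds of Hsf1 itself ran from -0.34 to 0.10 over clusters 0 to 9 of the authors' deposited tables, none called.

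The authors also scored pathways, and 23 of 2922 carried a chaperone name. The Reactome set for chaperone genes activated by ATF6 had log2 folds of -0.20, 0.04, 0.23, -0.07, 0.05, -0.01, -0.44, 0.15, -0.10 and 0.18 in clusters 0 to 9 of the authors' deposited tables. HSF1-dependent transactivation lay between -0.01 and 0.02 in clusters 0 to 5 and was -0.13, -0.18 and 0.07 in clusters 6, 7 and 9 of the authors' deposited tables. Folding of actin by CCT had 0.12, -0.30 and 0.15 in clusters 0, 7 and 8 of the authors' deposited tables. Formation of tubulin folding intermediates by CCT had 0.04, -0.28 and -0.03 in the same clusters. Chaperone-mediated autophagy was within 0.04 of 0 in clusters 0 to 5 and at -0.32 in cluster 7 of the authors' deposited tables. The WikiPathways unfolded protein response reached 0.41 in cluster 9 of the authors' deposited table, while the Reactome set of that name was at 0.09 there. These sets share genes with the members, so they are no separate evidence.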

How the data were processed

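Droplet single-cell RNA sequencing of sorted HSCs gave 6 libraries of 1 mouse each, and 11 gene tables and 11 pathway tables, 1 of each per cluster against all other cells, were used. Per the submitters' processing notes, Scanpy and the mm10 build were used, while the aligner, cell filters, doublet handling and clustering settings are not given in those notes, labels or files. The authors deposited each gene's mean level and its fold as log2 values, the mean as counts per 10000, with a p-value and an adjusted p-value over cells. The authors' pathway score is a signed statistic beside a log2 fold and a p-value. The deposited fold is the ratio of back-transformed means of log values: over 19 genes seen in 1 cell it differed from that form by at most 0.000, and from the ratio of plain means by a median of 0.47. Cells are the replicates in the deposited p-values, which served only to filter out noise, so no p is reported.

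The members, families, compartments, companion lists and call rule were chosen with earlier results of these data known. A gene was called at a log2 fold of at least 0.5 in size with a deposited adjusted p under 0.05. Genes that a cluster had no count of, shown by a fold under -10, were left out there (no fold lay between -14.0 and -5.80). Cell numbers came from the p-values of genes seen in 1 cell, to a tolerance of 0.01. Levels per cluster were rebuilt from the deposited mean, the fold and the cell numbers; they are approximate because the mean is of plain values and the fold is not, and are not scaled by gene length, so they are not compared between genes. Estimated counts multiply level, cells and equivalent depth, the depth at which Poisson draws from the overall profile miss as many genes as were missed. No count was taken to allow up to 3 counts. Intervals and limits cover counting error only, since whether molecules or reads were counted is not stated, nor whether strand was used, so that the overlapping Hspd1 and Hspe1 and the copies Hspa1a and Hspa1b may share reads. Hspbp1, Hspbap1 and Hspb11 entered by name only.

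Every member called in clusters 0 to 9 was named, with a fixed set of main members. Pathways were taken by name, with TRIC read only as a whole word, a limit set after the names were seen. Promoters came from RefSeq (GRCm38.p6; 67 of 82 symbols matched) and gene lengths from GENCODE (mm10); lengths were added after the data were seen. Alternatives were the size limit, the p filter, the level minimum, centring, mean for median, genes with no count and cell numbers changed by 10%. The reading of cell numbers and the rebuilding of levels were tested on simulated data, and the call rule was not. Python 3.11.15, pandas 2.3.3, NumPy 2.4.6, SciPy 1.17.1 and Matplotlib 3.10.9 were used.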

Additional observations from a re-analysis of the deposited data

How the results depend on the processing

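With 1 library per age and feeding group and no values per library used here, no difference can be set against the spread between animals, and depth limits clusters 6 to 10 most, where a count of 0 allows up to 0.968%, 1.12%, 1.73%, 2.68% and 30.0% of cells with a count. No paired analysis was possible because the values compare pooled clusters and no test was run on samples.

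With a limit of 0.25 the members called lower numbered 9, 2, 21, 5 and 2 in clusters 0, 3, 6, 8 and 9, and those called higher numbered 2, 8, 1, 3, 3 and 4 in clusters 1, 2, 3, 4, 7 and 8. With a limit of 1 the lower calls numbered 1, 0, 2, 3 and 1 in clusters 0, 3, 6, 7 and 8, and the higher calls 0 in clusters 1, 2, 7 and 10. With no p filter the higher calls numbered 3, 2, 2, 1, 3, 4, 6 and 22 in clusters 0, 1, 4, 5, 7, 8, 9 and 10, and the lower calls 2, 4, 1, 11, 5 and 4 in clusters 1, 2, 5, 8, 9 and 10. With an adjusted p under 0.001 the lower calls numbered 3 in cluster 0 and 6 in cluster 6, and the higher calls 0 in cluster 7 and 1 in cluster 10. Among members at or above the median level no call was left in clusters 0 to 3, that is 0 higher in clusters 0, 1 and 2 and 0 lower in clusters 0, 2 and 3. With members that had no count included, the lower calls numbered 6, 4 and 8 in clusters 8, 9 and 10. With folds centred on the median of all detected genes, cluster 6 had 6 called lower and cluster 10 had 2 called higher, the member median turned to 0.01 in cluster 6 and -0.05 in cluster 10, and it was -0.07 in cluster 8. The mean in place of the median was -0.05 in cluster 8. Among families and compartments in cluster 6, centring turned the medians of CCT to 0.10, DNAJB to 0.07 and cytosolic members to 0.05. The mean turned small HSPs to -0.04 in cluster 9 and DNAJB to 0.03 in cluster 7. The cause of these shifts was not tested beyond what each setting changes. Rebuilt levels with cell numbers changed by 10% stayed within the limit for the 5 genes tried.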

Other observations

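Some chaperone genes had almost no counts, and their folds rest on few cells. Dnajb13, a J protein of sperm flagella, had a mean of 0.00114 counts per 10000 over all cells, and its log2 folds in the authors' deposited tables ran from -1.39 in cluster 5 to 2.20 in cluster 7, none called. Dnajb7, at a mean of 0.00150, ran from -0.88 in cluster 2 to 1.06 in cluster 5, and Hspb2, at 0.00228, from -0.50 in cluster 2 to 0.66 in cluster 0, none called in the authors' deposited tables. Both had no count in clusters 6 to 10.

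The inducible HSP70 pair gave the highest member folds of cluster 10. Hspa1b was at 2.68 and Hspa1a at 1.95 in the authors' deposited table, in 10 cells, and neither passed the adjusted p. Hspb1, by contrast, was at 0.08 there in the authors' deposited table.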
